A study of Mus musculus with 8 samples.

Results

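The immediate early transcription factors compared here were Fos, Fosb, Fosl2, Jun, Junb, Jund, Egr1, Egr2, Egr3 and Ier2, 10 genes of the 55357 in the count table. They were chosen by name as members of the AP-1 and EGR families, with Ier2, and matched to the table through the gene symbols of the GENCODE mouse annotation. All 10 had enough counts to be tested, among 14514 tested genes. BMDM, macrophages grown from marrow of the femur and tibia of C57BL/6J wild-type mice in M-CSF, were given 2 μM So(d18:1), the sphingoid base sphingosine, in methanol for 6 h (4 libraries), or methanol alone for 6 h (4 control libraries), and their polyadenylated RNA was sequenced. Both groups therefore carried the M-CSF culture and the methanol. The sample labels name no inflammatory stimulus, while the study's text places such cells under one, so whether these cultures received one is not known. The study calls the samples biologically independent, and neither source says how many mice they came from, so p-values measure the spread between these libraries.

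AP-1 is a dimer of leucine-zipper proteins. FOS proteins bind DNA in a pair with a JUN protein, whereas JUN proteins can also pair with each other, and the dimer recognises the motif TGANTCA. EGR proteins carry zinc fingers and bind GC-rich sites, and NAB1 and NAB2 restrain them. In macrophages, M-CSF acts through its receptor CSF1R, RAS and the ERK kinases on SRF with its ELK partners and on CREB, which switch these genes on within minutes, and the transcripts are short-lived. EGR1 and EGR2 are known for their part in the choice of the macrophage fate by myeloid progenitors. A single time of 6 h was sampled, so an earlier rise and return was not measured.

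Libraries held 17748397 to 26088609 counts. Levels are CPM, counts scaled by TMM to a common library total, and differences are log2 fold changes (log2 differences) of So(d18:1) against control from edgeR's quasi-likelihood test, called at an adjusted p under 0.05 over all tested genes. By this rule 562 genes were higher and 736 lower. The control libraries were not alike: the chi-square per gene was 2.76 between replicates 1 and 2 and 3.78 between replicates 3 and 4, and between 5.75 and 12.2 across these pairs. The So(d18:1) libraries were uneven too, at 2.82 between replicates 1 and 3 and 5.53 to 7.62 between the other pairs. The labels give no reason for either. Several genes below followed the division of the controls, and their values are also given without control replicates 3 and 4 and without control replicates 1 and 2, alternatives added after seeing the data. The cells carried macrophage markers. Of 8 listed, Itgam was called higher and Cd68 and Mertk lower with So(d18:1), where 8.94% of all tested genes were called. An exon of Gm49368 overlaps Itgam on its own strand, and 66.3% of the 50-base words of Itgam occur in other transcripts. How reads that match both genes were counted is not given in the sources used here. Adgre1, which encodes F4/80, was at 2213 ± 60.9 CPM in control and 2187 ± 84.0 CPM with So(d18:1) (SD, n = 4 in both), and Csf1r at 6234 ± 98.2 and 5986 ± 298 CPM (SD, n = 4 in both).

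The promoters of 3 members are shown because their genes gave different values in the results: Egr2 had a negative and Fos a near-zero log2 difference with So(d18:1), and Jun differed between the control pairs. Each sequence is the 250 bases before the RefSeq start in GRCm38.p6, read along the gene's strand, with the motifs found in capitals. Egr2 lies at chr10:67537619-67537868 on the plus strand, Fos at chr12:85473640-85473889 on the plus strand and Jun at chr4:95052223-95052472 on the minus strand.
Egr2: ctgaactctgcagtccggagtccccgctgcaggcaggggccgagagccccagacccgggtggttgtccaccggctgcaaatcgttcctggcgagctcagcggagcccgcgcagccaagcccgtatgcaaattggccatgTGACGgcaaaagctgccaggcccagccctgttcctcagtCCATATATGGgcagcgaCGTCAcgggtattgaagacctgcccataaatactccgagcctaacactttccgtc
Fos: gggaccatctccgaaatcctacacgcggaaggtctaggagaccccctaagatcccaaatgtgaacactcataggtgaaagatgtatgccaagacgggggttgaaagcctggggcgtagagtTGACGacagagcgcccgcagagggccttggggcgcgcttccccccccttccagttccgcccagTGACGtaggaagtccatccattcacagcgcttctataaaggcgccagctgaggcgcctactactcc
Jun: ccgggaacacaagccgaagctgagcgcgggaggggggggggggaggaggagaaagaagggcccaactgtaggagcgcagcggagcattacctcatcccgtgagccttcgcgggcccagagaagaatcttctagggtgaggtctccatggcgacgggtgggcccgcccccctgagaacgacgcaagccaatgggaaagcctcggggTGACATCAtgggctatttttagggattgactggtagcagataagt
The Egr2 window held a CArG box, the site that SRF binds, beginning 72 bases before the start, and the cyclic AMP response half-site TGACG, which CREB binds, at 111 bases and, on the opposite strand, at 55 bases. The Fos window held TGACG at 129 and 66 bases, and the Jun window held TGACATCA, a site for JUN with ATF2, at 45 bases. Both strands were searched, also for TGANTCA, TGACGTCA, which contains TGACG, and the EGR motif GCGNGGGCG. A CArG box occurred in 1.47% of 32851 promoter windows of this length, TGACG in 17.8%, TGACATCA in 2.93%, TGANTCA in 6.75%, TGACGTCA in 1.55% and GCGNGGGCG in 4.70%. The RefSeq table held windows for 7 of the 10 members. Fosb and Fosl2 each held GCGNGGGCG, Fosb and Junb held TGACG, and the Jund window held none of the motifs. The Jund window ends 1210 bases and the Fosl2 window 671 bases from the GENCODE start of the gene, and all 250 bases of the Fosl2 window lie in GENCODE exons, so these letters are not those before the GENCODE start. The Egr2 window, chosen from 5 in the RefSeq table, ends where a GENCODE transcript of the gene starts. It lies inside the GENCODE span of Egr2, which begins at 67535475, and outside its exons. Egr1, Egr3 and Ier2 had no entry. These matches describe the letters in the windows, and bases further upstream were not searched. A motif missing from a window may therefore lie outside it. Whether the motifs bear on the values of the genes was not tested.

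Of the 10 members, Fosl2 rose and Egr3 fell with So(d18:1), and the other 8 did not pass the test. Fosl2, a FOS family member, was 1.17-fold higher, and Egr3, an EGR family member, 1.40-fold lower. Against these 2 of 10 members, 8.94% of all tested genes were called (3.87% higher and 5.07% lower). 5 members had a positive and 5 a negative log2 fold change, with a median of -0.091, where the median of all tested genes was 0.0036. The groups did not overlap for 1 member, Fosl2, with So(d18:1) above, where they did not overlap for 15.0% of all tested genes (7.14% with So(d18:1) above and 7.87% below). By the threshold of the study's methods, an unadjusted p under 0.05 with a fold change of at least 1.5, Egr1 was the 1 member that passed, as lower, where 3.89% of all tested genes passed (2.48% as lower).

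**Figure D1:**
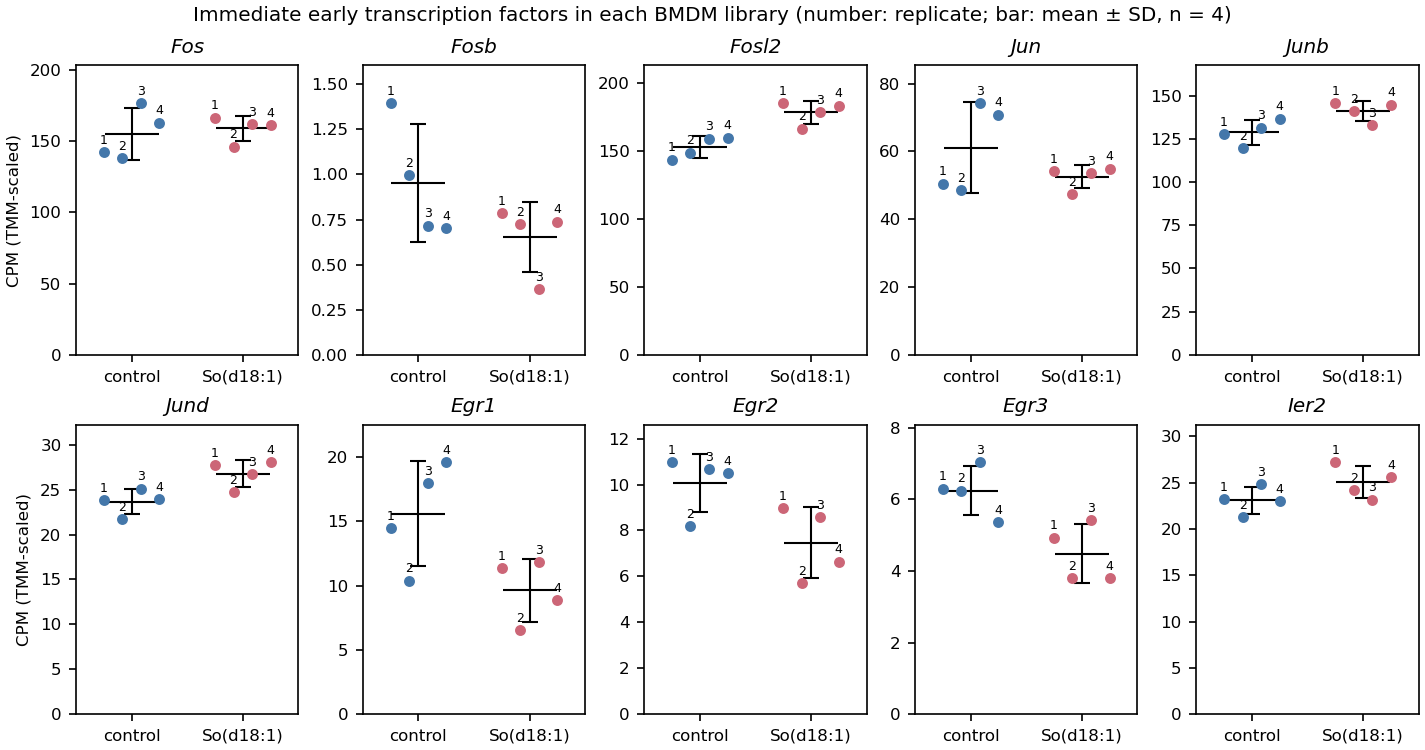
Level of each member in CPM (y axis, from 0) in the 4 control (blue) and 4 So(d18:1) (red) libraries, each point a library numbered by its replicate, with the mean and SD of each group (n = 4). Fosl2 is the member whose groups do not overlap, with control at 144 to 159.7 CPM and So(d18:1) at 166 to 185 CPM, and Jun shows control replicates 3 and 4 at 74.3 and 70.9 CPM above all other libraries.

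Among the FOS proteins, FOSL2, also called FRA-2, lacks the strong activation domain of FOS. Fosl2 (chromosome 5, 32135801 to 32157842, GRCm38, 4 exons) stood at 144, 149, 159 and 159.7 CPM in control replicates 1 to 4 and at 185, 166, 178 and 183 CPM in So(d18:1) replicates 1 to 4. Each So(d18:1) library lay above each control library. The means were 152.7 ± 7.89 CPM in control and 178 ± 8.50 CPM with So(d18:1) (SD, n = 4 in both), a log2 difference of 0.22 (± 0.048 SE, adjusted p = 0.00463 by edgeR). Fosl2 stayed called in all 8 fits with a library left out (adjusted p from 0.00339 to 0.0225 by edgeR), and with either control pair left out, at 0.28 without replicates 3 and 4 (adjusted p = 0.000791 by edgeR) and 0.16 without replicates 1 and 2 (adjusted p = 0.0428 by edgeR).

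Fos, the founding member of the family (chromosome 12, 85473890 to 85477273, 4 exons), was at 142, 138, 177 and 163 CPM in control replicates 1 to 4 and at 166, 146, 162 and 161 CPM in So(d18:1) replicates 1 to 4. The groups overlapped, and the So(d18:1) libraries lay inside the range of the controls. The log2 fold change was 0.04 (95% interval -0.11 to 0.18, adjusted p = 0.819 by edgeR), where intervals are 95% normal intervals from the standard error without adjustment. Its sign depended on the control pair, with 0.18 without control replicates 3 and 4 (adjusted p = 0.0443 by edgeR) and -0.094 without control replicates 1 and 2 (adjusted p = 0.310 by edgeR). Fosb, a FOS protein best known from neurons (chromosome 7, 19302696 to 19310051, 4 exons), was close to the lower end of detection, with 29, 25, 17 and 17 counts in control replicates 1 to 4 and 14, 16, 7 and 19 counts in So(d18:1) replicates 1 to 4. These counts correspond to 0.952 ± 0.325 CPM in control and 0.653 ± 0.194 CPM with So(d18:1) (SD, n = 4 in both). At this depth no difference was detectable, with a log2 difference of -0.52 and a 95% interval from -1.16 to 0.12 (adjusted p = 0.362 by edgeR).

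The JUN family gave no call. Jun (chromosome 4, 95049034 to 95052222, 1 exon), the strongest activator of the family, was at 50.5, 48.5, 74.3 and 70.9 CPM in control replicates 1 to 4 and at 54.2, 47.5, 53.6 and 54.9 CPM in So(d18:1) replicates 1 to 4. Control replicates 3 and 4 were above every So(d18:1) library, and control replicates 1 and 2 were within their range. The log2 fold change was -0.22 (± 0.158 SE, adjusted p = 0.480 by edgeR) and reversed to 0.085 without control replicates 3 and 4 (adjusted p = 0.540 by edgeR), whereas without control replicates 1 and 2 it was -0.46 (adjusted p = 1.2e-05 by edgeR). The SD of log2 CPM was 0.320 among control and 0.0973 among So(d18:1) libraries. An exon of Junos overlaps Jun on the opposite strand, and 5.83% of the 50-base words of the Jun transcript occur in other transcripts when strand is ignored.

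Junb, which often restrains JUN (chromosome 8, 84974484 to 84978718), was at 128, 119.6, 131 and 137 CPM in control replicates 1 to 4 and at 146, 141, 133 and 145 CPM in So(d18:1) replicates 1 to 4. All So(d18:1) libraries but replicate 3 were above the highest control library. The log2 fold change of 0.13 did not pass (95% interval 0.04 to 0.23, adjusted p = 0.0916 by edgeR) and passed without control replicates 3 and 4, at 0.19 (adjusted p = 0.0270 by edgeR). That was the 1 call over 11 other settings of scaling, filter, test, block and control pairs. Over these the value ran from 0.08 to 0.19 (adjusted p from 0.0270 to 0.394 by edgeR, DESeq2 or limma-voom). Jund, the member kept high in resting cells (chromosome 8, 70698949 to 70700616), was at 23.9, 21.7, 25.1 and 24.0 CPM in control replicates 1 to 4 and at 27.7, 24.7, 26.7 and 28.1 CPM in So(d18:1) replicates 1 to 4. Replicate 2 was the one So(d18:1) library below the highest control, and the log2 fold change was 0.18 (95% interval 0.04 to 0.31, adjusted p = 0.113 by edgeR). Prdx2 overlaps Junb and Gm11175 overlaps Jund on the opposite strand, and ignoring strand, 48.3% of the 50-base words of Jund and 5.76% of those of Junb occur in other transcripts. The strand setting of the counting is not given in the sources used here, so the counts of Jun, Junb and Jund may include reads of these partners.

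The EGR members were all lower on average with So(d18:1), and Egr3 alone passed. Egr3 (chromosome 14, 70077203 to 70082614, 3 exons), a factor induced with EGR1 and EGR2 in myeloid and lymphoid cells, was at 6.30, 6.25, 7.04 and 5.37 CPM in control replicates 1 to 4 and at 4.93, 3.80, 5.42 and 3.80 CPM in So(d18:1) replicates 1 to 4. The groups overlapped by 1 library on each side, since So(d18:1) replicate 3 was above control replicate 4. The means were 6.24 ± 0.686 and 4.49 ± 0.817 CPM (SD, n = 4 in both), a log2 difference of -0.49 (± 0.143 SE, adjusted p = 0.0373 by edgeR). The call was lost in 5 of the 8 fits with a library left out, namely without control replicate 1 (adjusted p = 0.0757 by edgeR), 2 (0.0567) or 3 (0.112) and without So(d18:1) replicate 2 (0.129) or 4 (0.127), while the log2 fold change stayed between -0.59 and -0.41. It was lost as well without control replicates 3 and 4 (adjusted p = 0.0930 by edgeR) and without control replicates 1 and 2 (adjusted p = 0.0864 by edgeR).

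Egr2, also known as Krox20 (chromosome 10, 67535475 to 67542188, 2 exons), was at 11.0, 8.20, 10.7 and 10.5 CPM in control replicates 1 to 4 and at 8.97, 5.70, 8.59 and 6.64 CPM in So(d18:1) replicates 1 to 4. Replicate 2 was the lowest library of each group, and control replicate 2 lay among the So(d18:1) libraries. The log2 fold change was -0.44 (95% interval -0.71 to -0.17) and missed the threshold narrowly (adjusted p = 0.0506 by edgeR). It passed in 6 of 11 other settings of scaling, filter, test, block and control pairs (adjusted p from 0.00511 to 0.263), among them DESeq2's Wald test (adjusted p = 0.0319) and the fit without control replicates 1 and 2 (-0.51, adjusted p = 0.0295 by edgeR), while without control replicates 3 and 4 it did not (-0.37, adjusted p = 0.263 by edgeR). It passed in 3 of 8 fits with a library left out, over which the adjusted p ran from 0.0151 to 0.174 (edgeR).

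Egr1, also known as Krox24 or Zif268 (chromosome 18, 34859823 to 34864984, 2 exons), was at 14.5, 10.4, 18.0 and 19.6 CPM in control replicates 1 to 4 and at 11.4, 6.56, 11.8 and 8.85 CPM in So(d18:1) replicates 1 to 4. Control replicate 2 lay within the So(d18:1) range and the other 3 control libraries lay above it. Egr1 had the most negative log2 fold change of the members, -0.70 (95% interval -1.20 to -0.21), a 1.63-fold lower level, and it did not pass (adjusted p = 0.145 by edgeR). A call was made without control replicate 2, at -0.86 (adjusted p = 0.0210 by edgeR), and without control replicates 1 and 2, at -0.97 (adjusted p = 0.0105 by edgeR), while the value was -0.37 without control replicates 3 and 4 (adjusted p = 0.506 by edgeR). Limma-voom called it as well (adjusted p = 0.0331). In all, Egr1 was called in 3 of 11 other settings of scaling, filter, test, block and control pairs. Over these settings the adjusted p ran from 0.00013, with the replicate block in edgeR, to 0.506. Egr1 was also called in 1 of 8 fits with a library left out. The spread of Egr1 between libraries of a group was larger than that of 89.1% of tested genes, against 23.3% for Fosl2 and 22.5% for Junb.

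The EGR levels were lower on average, with Egr3 alone called. The summed level of 9 neutrophil markers was also lower with So(d18:1), with no overlap. This sum ran from 2033 to 2716 CPM in control and from 1609 to 1834 CPM in So(d18:1) libraries. It was 2101 and 2033 CPM in control replicates 1 and 2 and 2716 and 2451 CPM in replicates 3 and 4, the libraries with the higher Egr1 and Jun. Egr2 and Egr3 did not divide the controls this way. Egr2 was highest in control replicate 1, and Egr3 was lowest in control replicate 4. All 9 markers were lower and 6 passed, where 5.07% of all tested genes were called lower. Their part in the EGR values was not tested. Fewer cells of a type and less RNA per cell cannot be told apart in these bulk libraries.

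**Figure D2:**
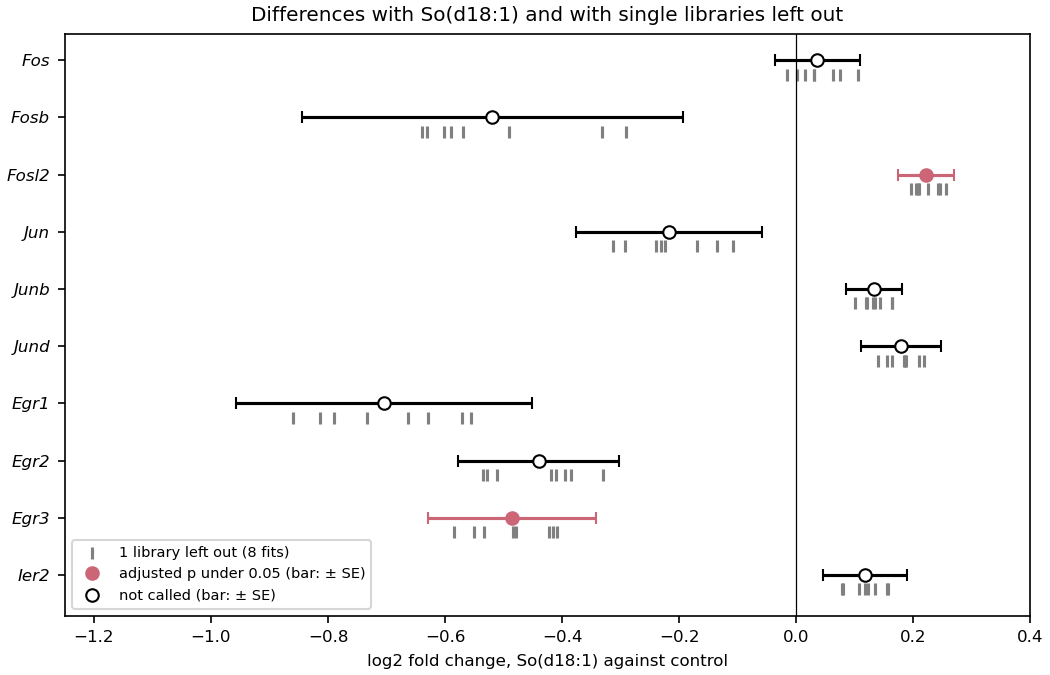
Log2 fold change of each member with So(d18:1) against control (x axis), with its standard error as the bar; filled red points have an adjusted p under 0.05, and grey ticks mark the fits with 1 library left out. The ticks of Fosl2 lie between 0.20 and 0.25 and those of Egr3 between -0.59 and -0.41, while those of Fos lie on both sides of 0.

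Ier2, a small nuclear protein induced alongside the AP-1 genes (chromosome 8, 84661331 to 84662852, 1 exon), was at 23.2, 21.3, 24.8 and 23.0 CPM in control replicates 1 to 4 and at 27.2, 24.2, 23.2 and 25.6 CPM in So(d18:1) replicates 1 to 4. The groups overlapped. The log2 fold change of 0.12 had a 95% interval from -0.02 to 0.26 (adjusted p = 0.345 by edgeR).

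**Figure D3:**
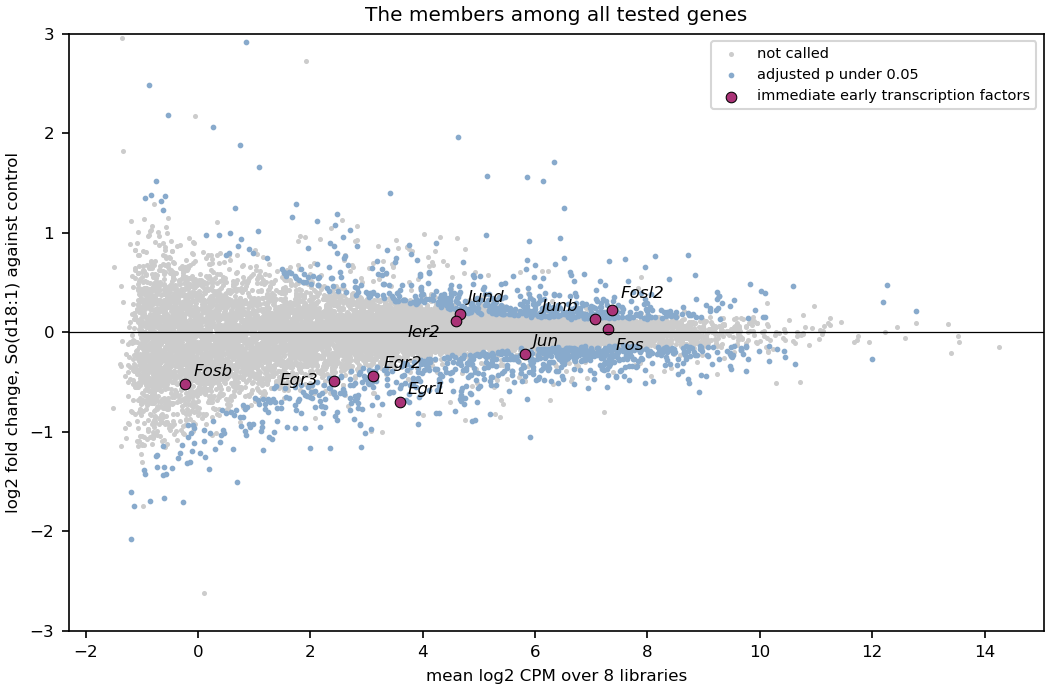
Log2 fold change with So(d18:1) (y axis) against mean log2 CPM over the 8 libraries (x axis) for all 14514 tested genes, in grey, with genes at an adjusted p under 0.05 in blue and the 10 members in purple. Fosl2 lies at 0.22 and a mean log2 CPM of 7.36, and Egr1, Egr2 and Egr3 lie between -0.70 and -0.44 at 2.42 to 3.59.

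Levels between members were compared as CPM per kb of the gene length in the deposited table. In control libraries Fos was highest, at 65.9 ± 7.68 CPM per kb (SD, n = 4), followed by Junb at 56.0 ± 3.12. Jun at 19.1 ± 4.20, Fosl2 at 15.8 ± 0.816, Ier2 at 15.1 ± 0.959 and Jund at 14.2 ± 0.848 CPM per kb came next. Egr1 at 3.48 ± 0.910, Egr2 at 2.97 ± 0.373, Egr3 at 1.42 ± 0.156 and Fosb at 0.153 ± 0.0520 CPM per kb were the lowest. Neighbours whose means were closer than the sum of their SDs were Fos and Junb, each successive pair from Jun to Jund, and Egr1 and Egr2. With So(d18:1), Fosl2 at 18.4 ± 0.878 stood above Jun at 16.5 ± 1.08, and Egr2 at 2.2 ± 0.460 above Egr1 at 2.15 ± 0.545 CPM per kb, in both cases by less than the sum of the SDs, and no other rank changed. The length used for Fosl2 was 9680 bases, while its longest transcript had 6537 bases. Jun had 3189 bases by both, so the rank of Fosl2 against Jun depends on the length taken.

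Because AP-1 dimers draw on these families, the share of each member in the RNA of its family was computed within each library from counts per kb, which does not depend on the scaling between libraries. Fosl2 took 19.6%, 20.7%, 17.9% and 19.2% of the FOS family in control replicates 1 to 4 and 21.2%, 21.6%, 21.1% and 21.6% in So(d18:1) replicates 1 to 4. Every So(d18:1) library was above every control library, and the share of Fos was lower in every So(d18:1) library, at 78.5% ± 0.302 against 80.4% ± 1.21 (SD, n = 4 in both). For each, the two-sided exact permutation test gave p = 0.0286, the smallest it can give for 4 against 4. The adjusted p over the 6 shares was 0.0857 and did not pass. A share at the smallest p can pass this adjustment only if most of the 6 shares reach it. In the JUN family Jun took 21.3% ± 2.96 in control and 17.6% ± 0.912 with So(d18:1) (exact permutation p = 0.0571, adjusted p = 0.0857), Junb 62.8% ± 2.42 and 65.3% ± 1.51 (exact p = 0.143, adjusted p = 0.171) and Jund 15.9% ± 0.740 and 17.1% ± 0.599 (exact p = 0.0571, adjusted p = 0.0857). Fosb took 0.192% ± 0.0805 and 0.122% ± 0.0370 of the FOS family (exact p = 0.286, adjusted p = 0.286). The shares of a family sum to the whole, so these tests are not independent.

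**Figure D4:**
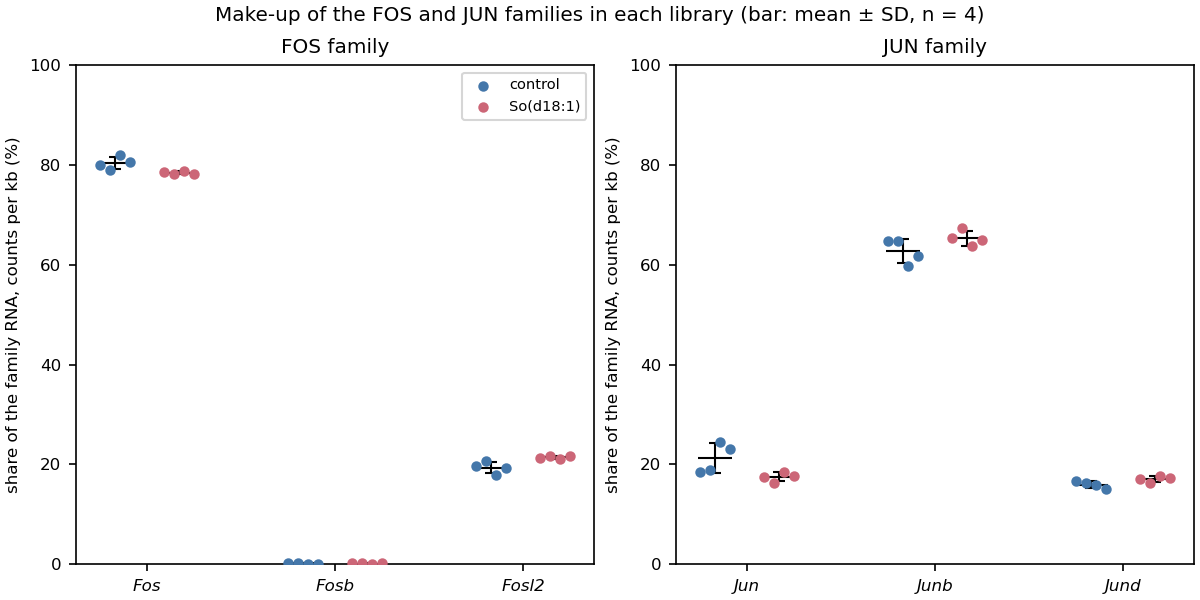
Share of each member in the RNA of the FOS family (left) and the JUN family (right), in percent of counts per kb (y axis), for the 4 control (blue) and 4 So(d18:1) (red) libraries with mean and SD (n = 4). The Fosl2 share lies at 17.9% to 20.7% in control and 21.1% to 21.6% in So(d18:1) libraries.

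Among the partners and relatives of the members, which include the ATF, BATF and small MAF proteins and the NAB corepressors, none of 12 tested genes was called (edgeR), with 1 at an unadjusted p under 0.05, where 23.4% of all tested genes had one. DESeq2 called 1, and limma-voom and the likelihood ratio test of edgeR called none. Their median log2 fold change was -0.01. The gene at an unadjusted p under 0.05, also called by DESeq2, was Nab2, which EGR proteins induce and which restrains them in turn. Nab2, named after its values were seen, was at 28.0, 25.9, 40.6 and 37.0 CPM in control replicates 1 to 4 and at 26.7, 24.3, 27.7 and 26.1 CPM in So(d18:1) replicates 1 to 4. Like Jun, it was higher in control replicates 3 and 4 than in all other libraries. Its log2 fold change was -0.33 (± 0.140 SE, adjusted p = 0.196 by edgeR), -0.04 without control replicates 3 and 4 (adjusted p = 0.836 by edgeR) and -0.57 without control replicates 1 and 2 (adjusted p = 7.9e-06 by edgeR). Nab1, also named after its values were seen, had 0.06 (adjusted p = 0.443 by edgeR).

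Of 32 other immediate early genes tested, 3 rose and 7 fell, with a median log2 fold change of -0.06 (31.2% called, where 8.94% of all tested genes were). Ier3, a regulator of cell survival, rose from 79.7 ± 4.11 to 121 ± 7.30 CPM (SD, n = 4 in both), a log2 difference of 0.60 (± 0.051 SE, adjusted p = 1.2e-07 by edgeR). Klf2, a zinc-finger factor of quiescent cells, rose by 0.39 on the log2 scale (adjusted p = 0.00157 by edgeR), and Nr4a2 was the other gene to rise. Nr4a1, an orphan nuclear receptor, fell from 40.1 ± 6.43 to 24.7 ± 3.58 CPM (SD, n = 4 in both), a log2 difference of -0.70 (adjusted p = 0.0102 by edgeR), and lost its call without So(d18:1) replicate 4 (adjusted p = 0.0544 by edgeR). It was at -0.49 without control replicates 3 and 4 (adjusted p = 0.00502 by edgeR) and at -0.89 without control replicates 1 and 2 (adjusted p = 5.2e-06 by edgeR). Its paralog Nr4a2 went the other way, at 0.32 (adjusted p = 0.0373 by edgeR). The remaining paralog Nr4a3, named after its values were seen, was at 1.05 ± 0.167 and 0.593 ± 0.201 CPM (SD, n = 4 in both) and did not pass, with a log2 difference of -0.82 (adjusted p = 0.102 by edgeR). The kinase gene Plk2 fell by 0.66 on the log2 scale (adjusted p = 6.8e-05 by edgeR) and stayed called in all 8 fits with a library left out and with either control pair left out, at -0.51 without replicates 3 and 4 and -0.79 without replicates 1 and 2. Myc, a growth regulator, was at 4.70 ± 1.44 and 2.68 ± 0.504 CPM (SD, n = 4 in both), a log2 difference of -0.81 (adjusted p = 0.0165 by edgeR), whose call was lost in 3 of 8 fits with a library left out and without control replicates 3 and 4 (-0.49, adjusted p = 0.208 by edgeR), and which was at -1.07 without control replicates 1 and 2 (adjusted p = 0.000738 by edgeR). Those 3 fits were without control replicate 3 (adjusted p = 0.0606 by edgeR), So(d18:1) replicate 1 (0.0504) or So(d18:1) replicate 2 (0.0640). The other genes that fell were Trib1 (-0.41), Ier5 (-0.17), Ier5l (-0.47) and Sgk1 (-0.18 on the log2 scale), which like Nr4a2 were named after their values were seen. Without control replicates 3 and 4, 4 genes of this list were called, namely Ier3, Klf2, Nr4a1 and Plk2. Trib1, Ier5, Ier5l, Sgk1 and Nr4a2 were therefore not called in that fit. Without control replicates 1 and 2, 13 genes were called.

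**Figure D5:**
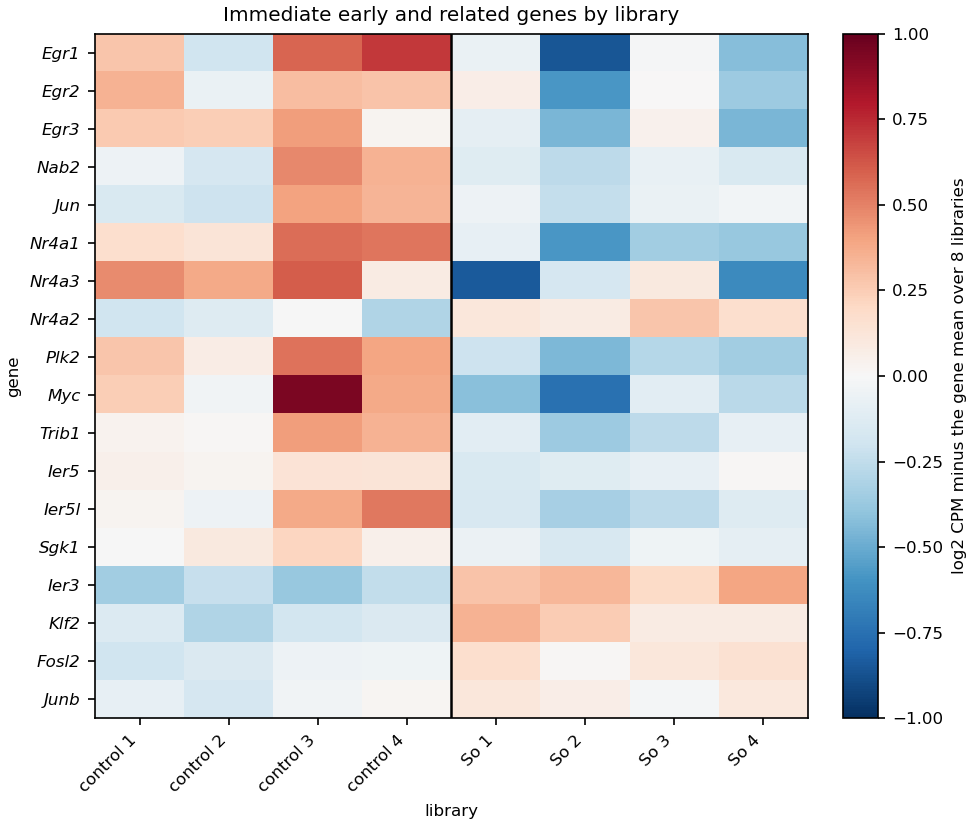
Log2 CPM of 18 genes (rows) in the 8 libraries (columns), each minus the gene's mean over the libraries, so that red is above and blue below that mean (color scale from -1 to 1). Egr1 is at 0.71 in control replicate 4 and -0.86 in So(d18:1) replicate 2; Ier3, Klf2, Nr4a2, Fosl2 and Junb run opposite to most other rows.

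Of 30 genes of the pathway upstream of the members that were tested, from CSF1R to ERK, SRF, ELK and CREB, 1 rose and 1 fell, with a median of 0.01 (6.67% called, where 8.94% of all tested genes were). Rps6ka5, which encodes the kinase MSK1 that acts on CREB and on histones at immediate early genes, rose by 0.34 on the log2 scale (adjusted p = 0.000337 by edgeR), and Gm49703 overlaps it on its own strand. Srf, named after its values were seen, had a log2 difference of 0.02 (adjusted p = 0.874 by edgeR). Of 23 tested genes that AP-1 or EGR proteins are known to act on, 2 rose and 2 fell, with a median of -0.12 (17.4% called, where 8.94% of all tested genes were). Thbs1, which encodes thrombospondin, rose from 4188 ± 59.8 to 5806 ± 277 CPM (SD, n = 4 in both), a log2 difference of 0.47 (adjusted p = 3.7e-07 by edgeR), and Gm29233 overlaps it on the opposite strand. Mmp13, a collagenase gene, rose from 4.51 ± 0.340 to 9.19 ± 0.946 CPM (SD, n = 4 in both), by 1.02 on the log2 scale (adjusted p = 7.4e-06 by edgeR). Plau, the urokinase gene, fell by 0.69 (adjusted p = 0.0108 by edgeR) and lost its call without So(d18:1) replicate 4 (adjusted p = 0.0554 by edgeR), with -0.45 without control replicates 3 and 4 and -0.89 without control replicates 1 and 2. The cyclin gene Ccnd1 fell by 0.66 on the log2 scale (adjusted p = 0.00257 by edgeR), with 21.6% of its 50-base words found in other transcripts when strand is ignored, and LTO1 on its opposite strand.

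Heat shock genes, which also respond to handling of cells, were not called in any of 7 tested (edgeR), with Dnaja1, named after its values were seen, at an unadjusted p under 0.05. DESeq2 and limma-voom called none of them and the likelihood ratio test of edgeR 1, and their summed level was 2379 to 2630 CPM in control and 2318 to 2544 CPM in So(d18:1) libraries. Among the other marker lists, the summed levels of the groups overlapped, at 30650 to 32994 against 26524 to 31475 CPM for 8 macrophage markers, 6.45 to 8.71 against 7.06 to 8.97 for dendritic cells, 16.5 to 19.4 against 13.3 to 17.1 for B cells, 1.55 to 2.78 against 1.05 to 1.58 for T and NK cells, 0.995 to 1.30 against 0.673 to 1.45 for erythroid cells, 6.61 to 10.3 against 6.05 to 8.60 for fibroblasts and 5.00 to 6.40 against 3.30 to 5.52 CPM for mast cells and basophils. Of these lists, 3 of 8 macrophage markers (Itgam higher, Cd68 and Mertk lower), 1 of 5 tested B cell markers (Pax5, lower) and the 1 tested T and NK cell marker (Nkg7, lower) were called. Of all tested genes, 8.94% were called and 23.4% had an unadjusted p under 0.05. All 5 B cell markers were lower, with a median log2 fold change of -0.92, and 4 were at an unadjusted p under 0.05. Cd79b made up most of their sum, and without it, a choice made after seeing the values, the sum was 3.58 to 5.65 CPM in control and 1.09 to 3.03 CPM in So(d18:1) libraries, with no overlap. At an unadjusted p under 0.05 were also 5 of the 8 macrophage markers. None of 5 tested dendritic cell, 5 fibroblast and 1 mast cell marker was called (edgeR), with 1 of each at an unadjusted p under 0.05, and no erythroid marker was tested. No marker was at 0 in all libraries. Their part in the members' values was not tested.

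Egr1 and Fosb had the largest SD of log2 CPM over the 8 libraries among the members, 0.519 and 0.480. The genes whose centred log2 CPM ran closest to Egr1 were Olr1, Tmem119 and Itga2b, with a root mean square difference of 0.104, 0.149 and 0.161 over the 8 libraries. None of these 3 passed, with log2 fold changes of -0.61, -0.63 and -0.61 (edgeR). The likeness was taken over both groups, so fold changes near that of Egr1 follow from the choice of genes. Those closest to Fosb were Gm13416, 5730405O15Rik and Gm20632, at 0.234, 0.258 and 0.276.

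AUUUA, a word often found in short-lived transcripts, was counted in the longest 3′ UTR of each member. Fos held 4 (4.91 per kb), Junb 2 (4.12 per kb), Jun 4 (3.24 per kb), Egr3 7 (2.65 per kb) and Egr2 3 (2.50 per kb). Jund held 1 (1.88 per kb), Fosl2 8 (1.72 per kb), Egr1 2 (1.64 per kb), Fosb 1 (0.434 per kb) and Ier2 none. The median over 11506 tested coding genes was 1.35 per kb and the 90th percentile 4.08 per kb. Fos and Junb stood above that percentile, and Fosl2 and Egr3 below it.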

How the data were processed

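Per the labels, the submitters used Trim Galore 0.6.7, HISAT2 2.2.1 (mm10) and featureCounts 2.0.1; strand and multi-mapping settings are not given in the sources used here. The values the authors deposited are raw counts per gene and library. Symbols, exons and 3′ UTRs came from GENCODE release 21 for mouse (GRCm38) and promoters from RefSeq.

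Counts were filtered by filterByExpr, scaled by TMM and tested across all genes with edgeR 4.0.16 (robust quasi-likelihood F test, R 4.3.3), with Benjamini-Hochberg adjustment; SE is |log2 difference| / √F. Log2 CPM used a prior count of 2. The script was tested on simulated data. Shares were compared by exact permutation tests (scipy 1.17.1). Figures were drawn with matplotlib 3.10.9.

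The members and gene lists were chosen with earlier results of these data known. Named genes are the members, up to 5 called genes with the smallest p per list, 3 genes most like each of the 2 most variable members, and Adgre1 and Csf1r; others are said to be named after their values were seen. The values of 1 called gene of the upstream list are not reported here. Alternatives were other scalings, filters and tests (DESeq2 1.42.0, limma 3.58.1), a replicate block and libraries left out. Total counts per library set the counting precision, and the 4 libraries per group the rest.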

Additional observations from a re-analysis of the deposited data

Results flagged for a closer look

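In 7 of 70 groups of 4 libraries examined, 1 library stood apart from the other 3 past Dixon's 95% limit, by the ratio of its gap from the next library to the spread of all 4. Chance marks about 5% of groups, 3.5 here. The groups are not independent, since they include family shares of members and genes chosen for their likeness to Egr1 and Fosb. No excess can therefore be read from the count. Fosb had a ratio of 0.889 in So(d18:1) libraries, at a log2 CPM of -1.14 in replicate 3 against -0.30 to -0.19 in the others, on 7 counts in that library, and its share of the FOS family had 0.859, at 0.0668% against 0.135% to 0.146%. Jun had 0.839 in So(d18:1) libraries, at 5.57 in replicate 2 against 5.75 to 5.78. Egr2 had 0.844 in control libraries, at 3.05 in replicate 2 against 3.40 to 3.47. Among the genes closest to Fosb, Gm13416 had 0.882 in control libraries, at 2.17 in replicate 1 against 1.88 to 1.91, and Gm20632 had 0.857 in So(d18:1) libraries, at 1.05 in replicate 3 against 1.53 to 1.61. Adgre1 had 0.832 in So(d18:1) libraries, at 11.17 in replicate 4 against 11.06 to 11.08.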

How the results depend on the processing

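The number of genes called was 1298 and moved to 815 without So(d18:1) replicate 2, within 815 to 1370 over the 8 fits with a library left out, to 865 without control replicates 3 and 4, and to 564 under the threshold of the study's methods. The number of members called was 2 and ran from 1 to 3 with a library left out. It was 4 without control replicates 1 and 2 (Egr1, Egr2, Fosl2 and Jun), 3 without control replicates 3 and 4 (Fos, Fosl2 and Junb) and 1 under the threshold of the study's methods (Egr1). The number of related list genes called was 16 and ran from 10 to 20 with a library left out, and was 32 without control replicates 1 and 2. Fits that leave out libraries hold fewer samples; the cause of the moves was not otherwise tested.

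Deviations of same-numbered libraries from their group means correlated at -0.0035 to 0.10, and those of differently numbered libraries at -0.14 to 0.11. The main test used no pairing by replicate number, and such pairing was not excluded. The replicate block was among the other settings counted above. With it 4 members were called (Egr1, Egr2, Egr3 and Fosl2), Egr1 at an adjusted p of 0.00013 and Egr2 at 0.00774 by edgeR.

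The sign reversed for Fos at -0.015 without control replicate 2 (-0.015 to 0.11 with a library left out) and -0.094 without control replicates 1 and 2, and for Jun at 0.085 without control replicates 3 and 4. It also reversed for Srf at -0.0022 without So(d18:1) replicate 2 (-0.0022 to 0.041) and -0.0017 without control replicates 1 and 2, for Gm20632 at 0.0084 without So(d18:1) replicate 3 (-0.24 to 0.0084) and 0.10 without control replicates 1 and 2, and for Adgre1 at 0.018 without control replicates 1 and 2. The cause was not tested. Fosl2 was called under all 8 fits with a library left out and all 11 other settings of scaling, filter, test, block and control pairs. No family share passed under any setting; with 3 against 4 libraries the exact test cannot give a p under 0.0571. Counts as low as those of Fosb limit its precision.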
